A study of Mus musculus with 4 samples.

Results

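Skin that received a nicotinamide cream (NIC) was compared with skin that received the control cream, an oil/water cream (Control), on 1 expression array each. The 2 arrays were chosen by their labels, out of 4 in the series, and the differences below are NIC minus Control in log2 intensity. All mice were male BALB/c, an albino strain, 8 weeks old, and their back skin received cream 2 times a day for 5 days. The other 2 arrays carry 0.1% all-trans retinoic acid, the acid form of vitamin A (ATRA), or that cream together with the NIC cream (ATRA+NIC), and serve here to show the levels of the same genes. All 4 groups, Control included, were treated with a cream, so untreated skin is not among them. The labels do not give the concentration of nicotinamide, do not state if the RNA on an array came from 1 mouse or a pool, and name skin where the title of the series names epidermis. With 1 array a group there is no spread between replicates and no test, and every difference below is a difference between these 2 arrays.

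Nicotinamide, an amide, is one of the forms of vitamin B3. Cells convert it to NAD, the carrier of electrons in metabolism, through a salvage pathway that starts with the enzyme NAMPT, and they dispose of it by methylation through NNMT. Enzymes that consume NAD, the sirtuins and the PARPs, release nicotinamide and are inhibited by it, and creams with it are used on skin for barrier repair and inflammation. Back skin holds the epidermis, whose upper cells build a cornified envelope from proteins such as loricrin, involucrin, the small proline-rich SPRR proteins and the late envelope LCE proteins. It also holds hair follicles, which make hair shaft keratins and keratin-associated proteins (KRTAP) while a hair grows, and melanocytes, dermal cells, fat and a sheet of muscle.

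Of 24203 gene names on the array, 6366 (26.3%) had a mean over the 4 arrays of log2 8.5 or more, an intensity of 362, and only these were counted. Of them 1227 carry a clone, predicted or accession-like name. The arrays were similar in brightness: the median target read 104.7 on Control and 102.8 on NIC, and random control probes, which match no gene, read 34.2 and 34.0. Every counted gene read at least 2 times the random probes on both arrays. Where a gene had several targets, its differences had a pooled standard deviation (SD) between targets of 0.48 log2 (2533 genes), which covers probes read on the same RNA and no difference between animals.

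The labelled tissue was checked against marker genes. The 6 epidermal markers Krt5, Krt14, Krt1, Krt10, Lor and Flg were among the brightest genes, between 18945 and 44983 on Control and between 16339 and 40541 on NIC. Genes of the liver were bright as well, although the labels name skin only. Of 65 measured hepatocyte markers 60 passed the brightness filter (92.3%). Alb, the gene of serum albumin, read 11694 on Control, 8302 on NIC, 15459 on ATRA and 14689 on ATRA+NIC. Cyp2e1, an alcohol-oxidising enzyme of the liver, read 28202 on Control and 25561 on NIC, and Tat, the liver's tyrosine aminotransferase, 5068 and 6233. Hnf4a, a transcription factor of hepatocytes, read 1191 and 1155. Heart muscle markers were dimmer but present, with Myh6, the cardiac myosin chain, at 1287 on Control and 855.0 on NIC, and 5 of 8 passed. Of the kidney (10), brain (8), pancreas (8) and testis (5) markers 0 passed, and they stayed near the random probes. These organ lists were chosen after the values were seen.

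The liver transcripts were not equal on the 2 arrays compared. The 65 hepatocyte markers summed to an intensity of 320465 on Control and 258066 on NIC, against 334943 on ATRA and 382652 on ATRA+NIC. Of the 60 that passed, 41 were lower on NIC and 19 higher, with a median difference of -0.19. Of these 60 markers 5 were at least 2-fold lower on NIC, among them Ugt2b5 at -1.45 and Mup5 at -1.33. At least 2-fold higher were 2, Igfbp1 at 1.65 and Bhmt at 1.63, whose 2 targets disagreed, at 0.20 and 3.07. Over all genes that passed, 2.37% were lower by that much and 2.51% higher. The part of the liver transcripts in the results below was not tested. Without the hepatocyte and heart muscle markers the counts given next are 158 higher and 146 lower.

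**Figure D1:**
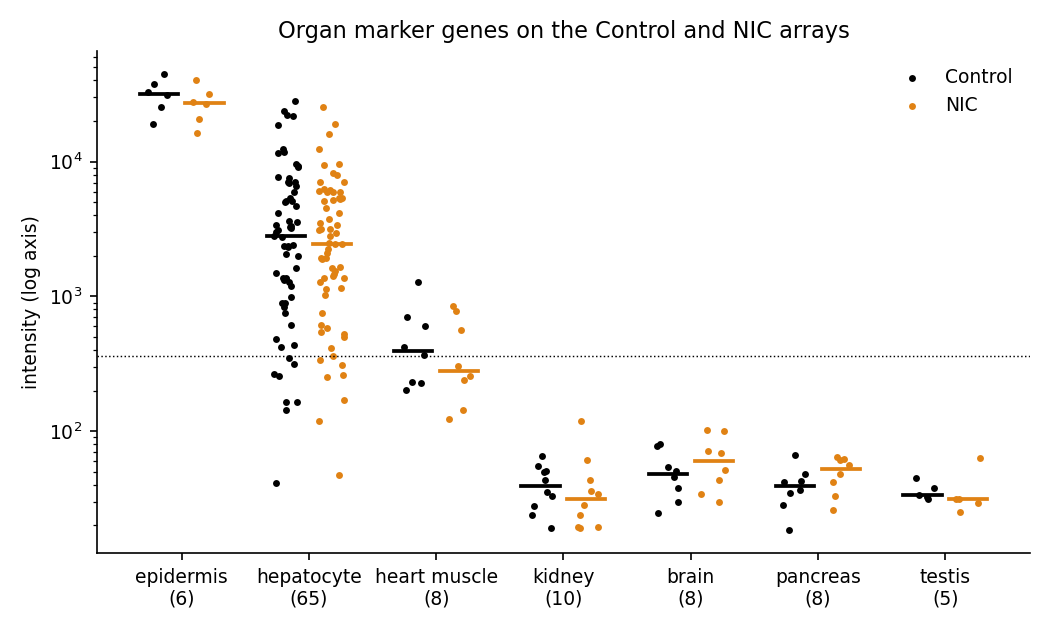
Intensities (log axis) of marker genes of the epidermis and of 6 other cell types or organs on the Control (black) and NIC (orange) arrays. Each point is 1 gene, the bar is the median of the list, the number of genes is under each name, and the dotted line is the brightness filter of 362. Hepatocyte markers lie mostly above the filter on both arrays, and kidney, brain, pancreas and testis markers lie below it.

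On the NIC array 160 genes (2.51% of 6366) were at least 2-fold brighter than on Control and 151 (2.37%) at least 2-fold dimmer. By 4-fold or more, 9 were higher and 10 lower. At 1.5-fold the counts were 657 (10.3%) and 622 (9.77%). The differences had a median of 0.03 and an SD of 0.50, 73.5% of genes lay within 0.5 log2 of 0, and 53.1% were above 0. The higher genes included 35 of the hair fibre lists, and the lower ones included stress-induced envelope genes and alarmins of the epidermis. In bulk skin, fewer cells of a type and less RNA per cell cannot be told apart.

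**Figure D2:**
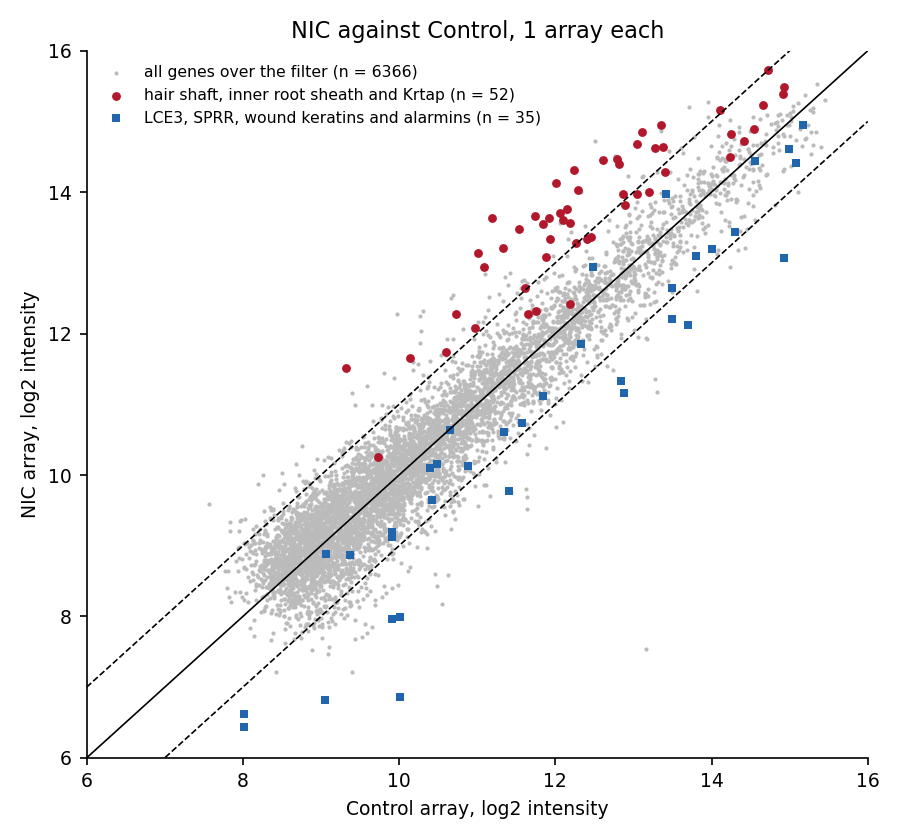
Log2 intensity on the NIC array against the Control array for the 6366 genes over the brightness filter (grey). Red circles are the 52 hair shaft, inner root sheath and Krtap genes and blue squares the 35 LCE3, SPRR, wound keratin and alarmin genes. The solid line marks equal intensity and the dashed lines a 2-fold difference. All red points lie above the solid line, and 33 of the 35 blue points lie below it.

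Hair fibre genes were the clearest group on the high side. They are made while a hair grows, and the labels used here give no stage of hair growth. The part of that stage in the differences between these 2 arrays was not tested. Hair shaft keratins, inner root sheath genes and Krtap genes together have 65 measured members, of which 52 passed the filter. All 52 were higher on NIC than on Control, 35 by at least 2-fold and 0 lower by that much, with a median of 1.31 against 0.03 over all genes. Over all 65, dim ones included, 42 were at least 2-fold higher and the median was 1.26. The summed intensity of the 65 was 436201 on Control and 916884 on NIC. The 35 are 22% of the genes that were at least 2-fold higher. The same genes were far dimmer on both other arrays, 68368 in sum on ATRA and 116537 on ATRA+NIC. NIC was the brightest of the 4 arrays for 51 of the 52, against 1860 of all 6366 genes. From the brightest, 50 of the 52 stood in the order NIC, Control, then both ATRA arrays, an order not counted over all genes.

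Keratin-associated proteins, which fill the space between keratin filaments in the hair shaft and crosslink them, had the highest median, 1.55 over 33 of 41 measured members, with 24 at least 2-fold higher. Krtap16-3 (chromosome 16, 88962687 to 88963096, MM9) had the largest difference on the high side among genes with an established name. It read 2342 on Control, 12752 on NIC, 58.7 on ATRA and 295.5 on ATRA+NIC, a difference of 2.44 or 5.44-fold. Krtap28-13 and Krtap14 differed by 2.12 each and Krtap28-10 by 2.07. The 3 members with the smallest differences were among the 4 brightest on Control: Krtap5-1 went from 23886 to 30546 (0.35), and Krtap6-5 and Krtap5-4 differed by 0.58 each. Krtap genes resemble each other in sequence, and a probe for one may read another, so the family as a whole is measured more securely than its single members.

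Of the 8 hair shaft keratins over the filter, 7 were at least 2-fold higher. Krt83, a keratin of the shaft cortex, read 6249 on Control, 22479 on NIC, 193.7 on ATRA and 725.8 on ATRA+NIC. Krt81 differed by 1.60 and Krt34 by 1.58. Krt35, a keratin that appears low in the forming shaft, differed least, by 0.63. The inner root sheath, the sleeve that moulds the shaft, had a smaller median of 0.56 over 11 genes, with 4 at least 2-fold higher. Krt26 was its extreme, at 639.2 on Control and 2911 on NIC (2.19), followed by Krt72 at 1.10, Krt73 at 1.05 and Krt28 at 1.03. Tchh, the gene of trichohyalin, the matrix protein of the sheath, read 31273 on Control and 46098 on NIC (0.56), and Krt25 differed by 0.25. The median of the hair shaft keratins, 1.23, was higher than that of the sheath on these 2 arrays.

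The genes lie in a few clusters. On chromosome 11 (99177157 to 99966911, MM9), which holds type I keratins and Krtap genes, 21 of 33 genes over the filter were at least 2-fold higher and 0 lower, with a median of 1.19. On chromosome 16 (88610710 to 89508568) 17 of 35 were higher and 0 lower, with a median of 0.95. The type II keratin cluster on chromosome 15 (101177874 to 101834737) was split, with 6 of 18 higher and 4 lower. Its higher members were the hair shaft keratins Krt81, Krt82, Krt83 and Krt85 and the root sheath keratins Krt72 and Krt73. Its lower ones were Krt6b, described below, and 3 predicted genes.

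Promoter sequences, which the arrays did not measure, are printed here for members of the hair and envelope groups. They come from RefSeq (build GRCm38.p6, not the MM9 of the array's annotation), and are the 220 bases before the annotated start of 3 hair genes that were higher on NIC and 3 envelope genes that were lower. Capitals mark matches on either strand to the letters of a TATA box (TATAAA). Capitals also mark, on either strand, the letters that AP-1 factors can bind (TGANTCA).
Krt34 (chr11:100041555-100041774, minus strand): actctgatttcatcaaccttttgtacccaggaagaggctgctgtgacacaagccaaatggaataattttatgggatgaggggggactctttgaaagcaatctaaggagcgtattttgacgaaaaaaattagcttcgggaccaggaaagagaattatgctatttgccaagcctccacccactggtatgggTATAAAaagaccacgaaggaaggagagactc
Krtap16-3 (chr16:88962874-88963093, minus strand): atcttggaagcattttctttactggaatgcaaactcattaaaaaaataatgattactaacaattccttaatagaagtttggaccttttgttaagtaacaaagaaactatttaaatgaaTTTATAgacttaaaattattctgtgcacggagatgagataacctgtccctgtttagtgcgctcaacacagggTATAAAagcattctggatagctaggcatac
Krtap4-7 (chr11:99644090-99644309, minus strand): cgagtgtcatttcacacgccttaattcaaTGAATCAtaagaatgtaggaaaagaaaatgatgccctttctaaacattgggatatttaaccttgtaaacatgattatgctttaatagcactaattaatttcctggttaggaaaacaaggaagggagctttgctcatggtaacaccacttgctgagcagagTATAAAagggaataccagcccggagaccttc
Sprr2f (chr3:92364967-92365186, plus strand): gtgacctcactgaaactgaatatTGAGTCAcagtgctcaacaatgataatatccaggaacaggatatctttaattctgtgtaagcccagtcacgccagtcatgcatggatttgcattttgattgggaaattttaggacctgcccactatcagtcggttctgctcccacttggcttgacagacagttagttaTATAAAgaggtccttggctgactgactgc
Sprr2b (chr3:92316485-92316704, plus strand): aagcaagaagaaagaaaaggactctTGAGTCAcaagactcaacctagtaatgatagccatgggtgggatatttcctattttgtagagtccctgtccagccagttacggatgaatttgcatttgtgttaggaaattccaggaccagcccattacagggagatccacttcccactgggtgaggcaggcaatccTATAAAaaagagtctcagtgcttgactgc
Lce3a (chr3:92926231-92926450, minus strand): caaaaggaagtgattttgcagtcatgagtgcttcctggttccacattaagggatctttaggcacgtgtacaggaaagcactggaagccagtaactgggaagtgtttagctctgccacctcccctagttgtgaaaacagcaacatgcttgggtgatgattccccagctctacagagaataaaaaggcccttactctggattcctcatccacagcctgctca

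In windows of 300 bases, 250 before and 50 after the start, TATAAA was found in 22 of 28 Krtap promoters that could be matched (78.6%) and in 8 of 11 SPRR promoters (72.7%), against 14.2% of all 27025. Within 20 to 40 bases before the start, on the strand of the gene, it was found in 16 Krtap (57.1%) and 7 SPRR promoters (63.6%), against 2.09% of all. TGANTCA was found in 8 of 11 SPRR promoters (72.7%), in 7 of 28 Krtap promoters (25%) and in 7.93% of all. The 5 LCE3 promoters held neither. Of the hair shaft keratins 3 promoters could be matched, and 1 held TATAAA near the start (33.3%). The letters near the start were frequent in both the Krtap and SPRR families, which differed in opposite directions on these arrays. Members of a family share ancestry, and a match is a description of the letters only.

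Some genes outside the hair fibre lists had a like profile over the 4 arrays. Of the other 125 genes at least 2-fold higher on NIC, 35 read at least 2-fold higher on Control than on both ATRA arrays, as did all 35 from the hair fibre lists. Over all genes 149 of 6366 (2.34%) had this profile, and of the 151 lower genes 13 had it. Of these 35, 24 have predicted or clone names, of which 6 lie on chromosome 16, 5 on chromosome 11 and 4 each on chromosomes 1, 7 and 10, where Krtap genes also lie. The 11 with names, singled out after their values were seen, include Car6, a secreted carbonic anhydrase, at 1265 on Control and 5109 on NIC (2.01). They also include Gprc5d, a receptor of the cells that make the shaft cortex, at 1.60, Crym, a thyroid hormone binding protein, at 1.55, and S100a3, a calcium-binding protein of the hair cuticle, at 1.11. Ly6g6d differed by 1.85 and Cryba4, a lens crystallin gene, by 1.77. Psors1c2, a gene beside corneodesmosin, was not among the 35. It read 6946 on Control and 23386 on NIC (1.75), and 3360 and 4082 on ATRA and ATRA+NIC.

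**Figure D3:**
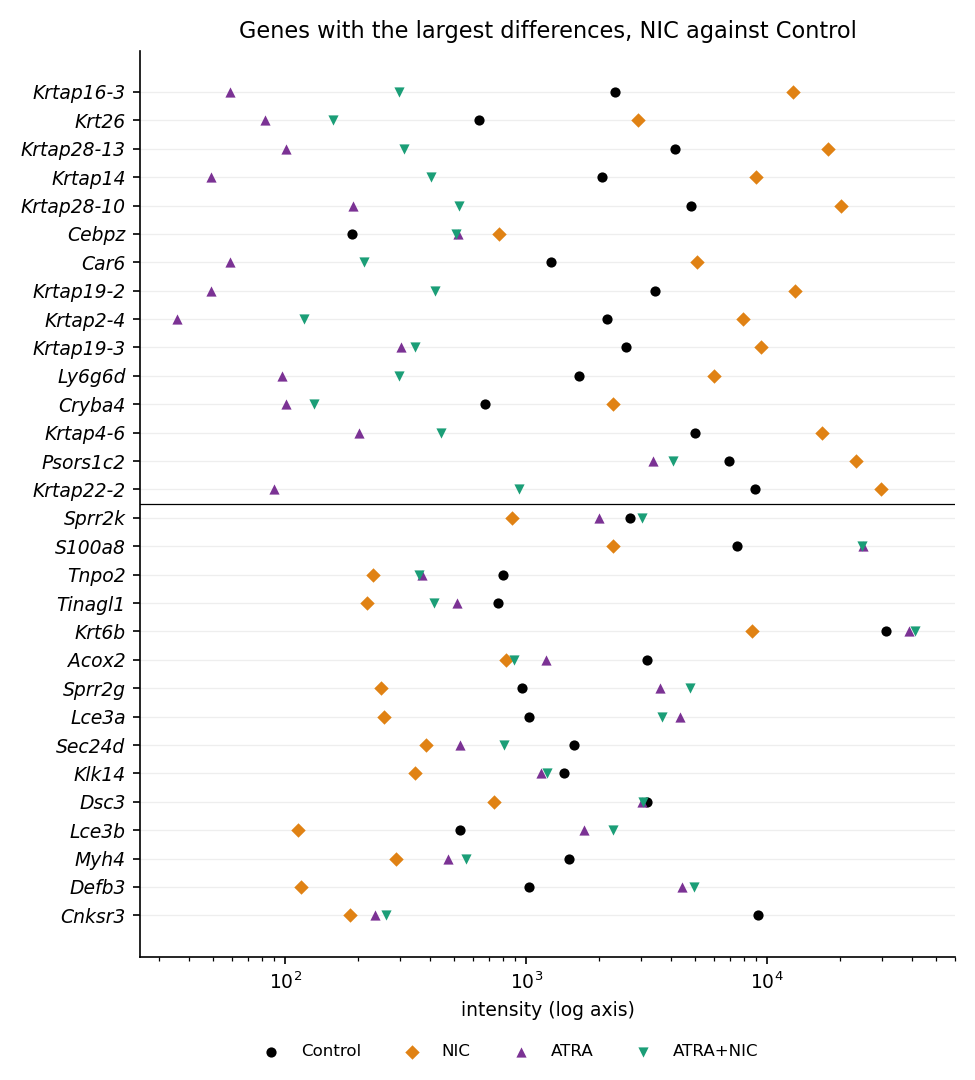
Intensity (log axis) on each of the 4 arrays for the 15 genes with an established name that were highest (upper block) and the 15 that were lowest (lower block) in NIC minus Control. Each point is 1 array: Control black circles, NIC orange diamonds, ATRA purple triangles, ATRA+NIC green inverted triangles. In the upper block all genes but Cebpz are dimmest on an ATRA array, and in the lower block every gene is dimmest on NIC.

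Genes that build and time the follicle differed less than those of the fibre. Of 28 measured hair matrix and follicle regulators 12 passed, with a median of 0.38 and 3 at least 2-fold higher. These were Psors1c2, S100a3 and Bmp4, a signal of the dermal papilla and forming shaft (438.7 on Control, 889.1 on NIC, 1.02). The list is thus mixed, since S100a3 is a protein of the hair cuticle and Psors1c2 is named above only by its place beside corneodesmosin. Foxn1, the transcription factor mutated in nude mice, differed by 0.87 and Dlx3, another factor of the shaft, by 0.57. Lef1, a partner of beta-catenin in the hair matrix, was below the filter and read 173.9 and 247.3, and Shh, the growth signal of the matrix, was near the random probes at 39.5 and 49.4. Bulge and stem cell genes had a median of -0.01 over 8, with 3 above 0 and 5 below. Krt15, a keratin of the bulge and of basal cells, read 3111 on Control and 6957 on NIC (1.16). Sox9, a factor of the outer root sheath, differed by 0.76. Cd34, of the same list, was lower, at 2254 on Control and 1517 on NIC (-0.57), with its 3 targets between -0.82 and -0.38.

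All 4 melanocyte markers over the filter were at least 2-fold higher on NIC, with a median of 1.38. Tyrp1, an enzyme of pigment synthesis, read 771.9 on Control, 2441 on NIC, 550.0 on ATRA and 370.5 on ATRA+NIC, a difference of 1.66. Mlana, a protein of the pigment organelle, differed by 1.44, Dct, a further pigment enzyme, by 1.32 and Pmel, which forms the fibrils of that organelle, by 1.10. NIC was the brightest of the 4 arrays for each. Over all 15 measured markers 7 were at least 2-fold higher, 0 lower, and the median was 0.88.

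On the low side were 151 genes, 2.37% of the 6366 over the filter. Of the 151, 12 belong to 3 groups of the stressed epidermis: the LCE3 genes, the SPRR genes, and wound keratins with alarmins. These groups have 43 measured members, 35 over the filter. Of the 35, 12 were at least 2-fold lower on NIC, 0 higher, and 33 were below 0, with a median of -0.78. Over all 43, 13 were at least 2-fold lower and the median was -0.73. Their summed intensity was 311120 on Control, 203098 on NIC, 453393 on ATRA and 474149 on ATRA+NIC. NIC was the dimmest of the 4 arrays for 32 of the 35, against 1974 of all 6366 genes. For 27 the order from the dimmest was NIC, Control, then both ATRA arrays, an order not counted over all genes.

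LCE3 genes encode late envelope proteins that are induced when the barrier is injured. Lce3b read 529.7 on Control, 112.6 on NIC, 1730 on ATRA and 2299 on ATRA+NIC, a difference of -2.23. Lce3a differed by -2.01 and Lce3f by -1.39, while Lce3c, the brightest of the family on Control, differed by -0.30. The median over 5 members was -1.39, and with a filter at log2 9.5 it was -0.79. The LCE1 and LCE2 genes of the undisturbed epidermis did not share this, with a median of 0.03 over 10 and a range from -0.45 to 0.44.

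Among 13 SPRR genes 5 were at least 2-fold lower, with a median of -0.81. Sprr2g had the largest difference, 960.7 on Control and 250.7 on NIC (-1.94), followed by Sprr2k at -1.63, Sprr2f at -1.59, Sprr2j-ps, a pseudogene, at -1.58 and Sprr2b at -1.28. The other 8 lay between -0.87 and 0.56. Sprr1a (0.56) and Sprr4 (0.46) were the 2 that were higher on NIC. The Sprr2 genes are close copies of each other, and their probes may share signal.

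Wound keratins and alarmins had a median of -0.73 over 17 genes, all below 0, with 4 at least 2-fold lower. Defb3, an antimicrobial beta-defensin, read 1030 on Control, 116.1 on NIC, 4433 on ATRA and 4959 on ATRA+NIC. Its difference of -3.15, an 8.88-fold lower reading, was the second largest among named genes, and its 2 targets were both lower. Krt6b, a keratin of wounded epidermis and of the companion layer of the hair, went from 31228 to 8635 (-1.85), while Krt16 (-0.38) and Krt17 (-0.11) differed little. S100a8 and S100a9, the subunits of calprotectin, read 7522 and 7360 on Control and 2280 and 2583 on NIC (-1.72 and -1.51). Lcn2, an iron-binding antimicrobial protein, differed by -0.76. Calprotectin is also made by neutrophils, and the neutrophil list had 14 measured members, of which only these 3 passed the filter. Its summed intensity was 17732 on Control and 6865 on NIC, and over all 14 the median was -0.38 with 4 at least 2-fold lower. The part of neutrophils in these readings was not tested.

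The epidermal differentiation complex on chromosome 3 (90314958 to 93368561, MM9), which holds the SPRR, LCE, S100 and filaggrin genes, had 10 of 51 genes at least 2-fold lower and 3 higher, with a median of -0.29. The 3 higher were outside the LCE3, SPRR, wound keratin and alarmin lists. They were Ivl, involucrin, an early protein of the envelope (2585 on Control, 5618 on NIC, 1.12), S100a1, which read 228.5 and 648.4, and S100a3 of the hair cuticle. The main structural genes were close, with Lor (loricrin) at -0.15, Flg (filaggrin) at -0.21 and Krt14 at -0.04, while Krt1 was at -0.45 and Krt10 at -0.60. Ppl, periplakin, a plakin that anchors the envelope to desmosomes, was at -1.13. Filaggrin and the main envelope proteins as a group had a median of -0.15 over 20.

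Desquamation and adhesion genes had single large differences within groups near 0. Klk14, a kallikrein protease that cuts corneodesmosomes, read 1439 on Control, 345.8 on NIC, 1147 on ATRA and 1221 on ATRA+NIC (-2.06), and Klk9 differed by -1.25. The other 18 proteases and inhibitors of that list were within 2-fold, with a list median of -0.14. Dsc3, a desmosomal cadherin of basal cells, read 734.8 on NIC and between 3026 and 3181 on the other 3 arrays (-2.11). Dsg1c, a desmoglein, differed by -1.31, and Cdh3, the P-cadherin of basal and matrix cells, by 0.98. Both Klk14 and Dsc3 rest on 1 target each. In both genes the reading that stood apart was that of the NIC array alone.

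Ceramide and barrier lipid genes were lower as a set by a small amount, with 23 of 30 below 0, a median of -0.23 and 2 at least 2-fold lower. Smpd3, a sphingomyelinase, was at -1.16 and Abca12, the lipid transporter of lamellar granules, at -1.12. Both depend on the target read: with the brightest target they were at -0.62 and -0.36. Elovl4, which makes very long fatty acids for barrier ceramides, went from 8110 to 4825 (-0.75) and Kdsr, a reductase of ceramide synthesis, from 797.7 to 417.2 (-0.94). Cholesterol and fatty acid synthesis genes had a median of -0.08 over 28, with 0 at least 2-fold apart.

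**Figure D4:**
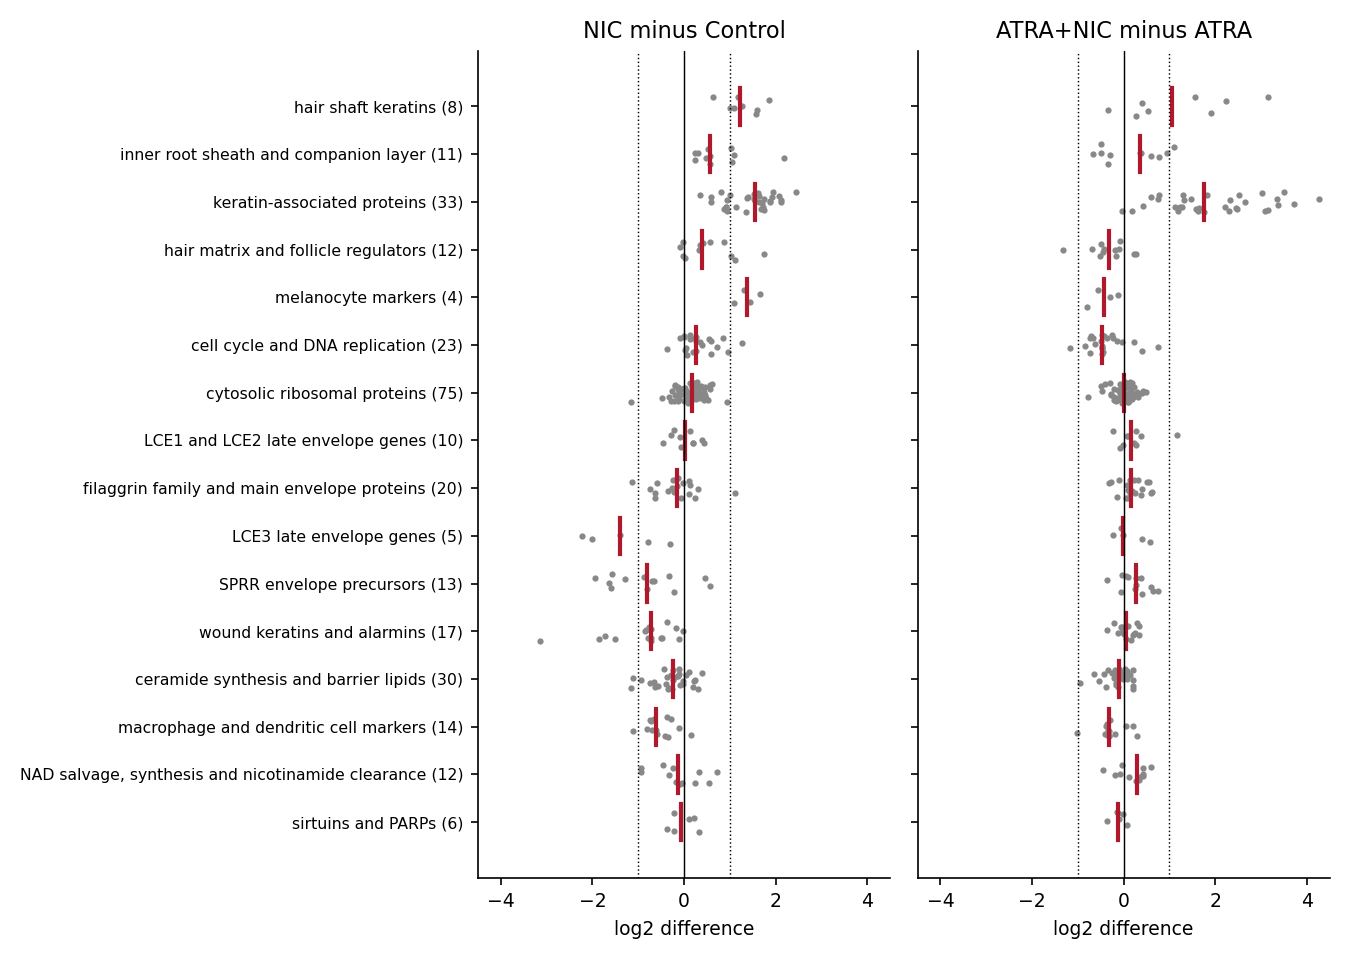
Log2 differences of single genes (grey points, brightness filter passed, number in brackets) in 16 gene lists, for NIC minus Control (left) and ATRA+NIC minus ATRA (right), with the list median as a red bar and dotted lines at a 2-fold difference. The medians of the hair fibre lists lie to the right of 0 in both panels. The medians of the LCE3, SPRR and wound keratin lists lie to the left of 0 in the left panel and around 0 in the right one.

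Of 14 macrophage and dendritic cell markers over the filter 13 were lower on NIC, with a median of -0.61 and 1 of at least 2-fold. C1qa, a chain of complement C1q that tissue macrophages make, read 5485 on Control, 2538 on NIC, 5124 on ATRA and 3990 on ATRA+NIC (-1.11). H2-Eb1, a class II antigen presentation gene, was at -0.81, and C1qc and Clec10a at -0.74 and -0.73. Clec10a was at -0.29 with its brightest target. Cd68, a lysosomal marker of macrophages, was the exception, at 0.15. The summed intensity of all 24 measured markers was 47851 on Control and 34247 on NIC. T, NK and B cell markers had 0 of 20 over the filter. Interferon-stimulated genes were all slightly below 0, 8 of 8 with a median of -0.14, and inflammatory cytokines and chemokines had a median of -0.30 over 13, with Ccl11, an attractant of eosinophils, at -0.78. With no filter on dim genes that last median was 0.02.

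Genes over the filter that handle nicotinamide and NAD were not far apart. Of 30 measured, 12 passed the filter, and of these 0 were at least 2-fold apart, with a median of -0.13. Over all 30, dim ones included, 2 were at least 2-fold higher, 0 lower, and the median was -0.07. Nampt, the entry enzyme of salvage, read 702.2 on Control, 823.4 on NIC, 985.8 on ATRA and 966.8 on ATRA+NIC, a difference of 0.23. Nnmt, which methylates nicotinamide for excretion, had a mean just below the filter and read 191.7 on Control, 366.6 on NIC, 408.6 on ATRA and 540.0 on ATRA+NIC (0.94). The direction for Nampt depends on the target: its dimmer target read 292.7 on Control and 432.8 on NIC (0.56), and its brighter one 1685 and 1566 (-0.11).

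The largest differences over the filter in the list went both ways. Naprt, which starts NAD synthesis from nicotinic acid, read 384.9 on Control and 638.7 on NIC (0.73). Aox4, an aldehyde oxidase of the skin, whose family oxidises the methylated product of NNMT, went from 1742 to 910.4 (-0.94). Qprt, which makes NAD precursors from tryptophan breakdown, went from 1981 to 1043 (-0.93). Ido2, an enzyme of tryptophan breakdown, was at 0.55. Tdo2, the liver's tryptophan oxygenase, was bright at 7095 on Control and 5996 on NIC (-0.24), and it belongs to the hepatocyte markers above. Tryptophan-to-NAD genes are strongest in liver, so the liver transcripts on these arrays touch this list, and their part in its values was not tested.

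Sirtuins and PARPs had 6 of 24 measured genes over the filter, all within 1.5-fold, with a median of -0.05. Parp1, the main PARP of DNA repair, read 410.3 on Control and 351.9 on NIC (-0.22), Sirt2, a cytoplasmic deacetylase, was at -0.37 and Sirt7, a nucleolar one, at 0.33. Sirt1 was far below the filter, at 77.9 on Control and 230.0 on NIC (1.56), and at 87.2 on ATRA and 261.2 on ATRA+NIC. Hcar2, the receptor of nicotinic acid, read 476.3 on Control and 235.1 on NIC (-1.02), a gene singled out after its values were seen.

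Housekeeping groups were shifted by small amounts. Cytosolic ribosomal proteins had 56 of 75 genes above 0, against 53.1% of all genes, with a median of 0.18, though Rpl27a was at -1.15. Proteasome subunits had a median of 0.22 over 34, with Psmb4 at 1.11, and respiratory complex I 0.12 over 33, with 0 at least 2-fold apart. Cell cycle genes had 20 of 23 above 0 and a median of 0.26. Cdk2 was at 1.26 and Stmn1, a microtubule regulator of dividing cells, at 0.96. Cdk1, the kinase that starts mitosis, was at 0.73, but Mki67, the proliferation marker, read 1078 on Control and 1022 on NIC (-0.08) and Top2a, the topoisomerase of dividing cells, was at -0.37.

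Clock genes, which oscillate over the day, had a median of 0.18 over 10, with 2 at least 2-fold lower and 1 higher. Dbp, an output gene of the clock, read 883.4 on Control, 310.1 on NIC, 668.1 on ATRA and 692.3 on ATRA+NIC (-1.51), and Nr1d1, a repressor of the core loop, 2016 on Control and 917.8 on NIC (-1.14). Nfil3, which binds the sites that DBP binds and represses them, went from 560.2 to 1206 (1.11), and Cry1, a core repressor, from 401.2 to 728.3 (0.86). Per1 was at -0.02 and Arntl, the core activator, at 0.20. The labels do not give the hour at which skin was taken, and clock genes are also expressed in liver.

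Some of the largest single differences rest on 1 array. Cnksr3, a scaffold protein of epithelial sodium transport, read 9164 on Control and 185.4, 236.1 and 260.8 on NIC, ATRA and ATRA+NIC. Its difference of -5.63 is the largest in the comparison and comes from 1 target and the Control array alone. Cebpz read 189.4 on Control and between 510.5 and 772.2 on the other 3 (2.03). Myh4, the fast myosin chain of skeletal muscle, read 1499 on Control and 287.8 on NIC (-2.38), and Des, desmin, was at -1.39, but the 20 skeletal muscle markers over the filter had a median of -0.02, with Tpm1 at 0.93. Sec24d, a coat protein of vesicle export (-2.03), Acox2, a peroxisomal oxidase of bile acid synthesis in liver (-1.94), and Tnpo2, a nuclear import receptor (-1.79), were also brightest on Control. Tinagl1, a matrix protein, had 2 targets that disagreed, at -3.30 and -0.33.

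Of the 160 higher genes, 34 had several targets. In all 34 the targets lay on the same side of 0, and in 14 every target was at least 2-fold higher. Of the 151 lower genes 35 had several, all on 1 side, with every target at least 2-fold lower in 11. Genes were chosen by the mean of their targets, which favours targets on 1 side, so these counts too describe the choice in part. NIC was the brightest of the 4 arrays for 155 of the 160 and the dimmest for 140 of the 151, while Control was the dimmest for 55 and the brightest for 95. Over all 6366 genes NIC was the brightest for 1860 and the dimmest for 1974, and Control the dimmest for 1949 and the brightest for 1266. Choosing genes by these 2 arrays favours both of them as extremes, so the counts within the 160 and the 151 describe the choice in part.

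The same cream was also compared on top of ATRA, as ATRA+NIC minus ATRA, 2 arrays that the first difference does not use. There 100 of the same 6366 genes (1.57%) were at least 2-fold higher and 25 (0.393%) lower, and at 1.5-fold 5.31% were higher and 4.49% lower. At least 2-fold higher in both differences were 45 genes (0.707%), which is 28% of the 160 and 45% of the 100. Of the 45, 20 lay outside the hair fibre lists, and the rest were hair fibre genes. Most of the 20, such as Car6 and Gprc5d, had the hair-like profile over the 4 arrays described above. At least 2-fold lower in both was 1 gene (0.0157%), the ribosomal pseudogene Rpl13-ps5, and 3 (0.0471%) were 2-fold apart in opposite directions.

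The hair fibre genes as a whole were higher in both, carried by the Krtap genes and less by the inner root sheath. Their median was 1.31 in NIC minus Control and 1.30 in ATRA+NIC minus ATRA, with 35 and 32 of the 52 at least 2-fold higher and 45 above 0 in both, against 26.2% of all genes. Of the 33 Krtap genes 32 were above 0 with ATRA, with a median of 1.75, and of the 11 inner root sheath genes 6, with a median of 0.36. Krt73 and Krt28 of the sheath were lower there, at -0.34 and -0.50. Krtap7-1, for example, read 7063 on Control and 22708 on NIC, and 51.4 on ATRA and 993.7 on ATRA+NIC. Krt34 read 71.2 on ATRA and 630.1 on ATRA+NIC. Of the 33 Krtap genes over the filter, 12 read under 100 on the ATRA array, where the random probes read 34.8, which limits those differences. Of the other 125 higher genes, 68 were above 0 in ATRA+NIC minus ATRA, against 49.3% of all genes, with a median of 0.04. The 35 with the hair-like profile had 28 above 0 and a median of 1.04, and the remaining 90 had 40 above 0 and a median of -0.02.

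Several other groups had medians on opposite sides of 0. The 35 LCE3, SPRR, wound keratin and alarmin genes had a median of -0.78 without ATRA and 0.10 with it, where 0 were at least 2-fold lower and 21 were above 0. Melanocyte markers had medians of 1.38 and -0.43, hair matrix and follicle regulators 0.38 and -0.31, and cell cycle genes 0.26 and -0.47. Macrophage and dendritic cell markers had medians below 0 in both, at -0.61 and -0.32, with 11 of 14 genes below 0 in both. Interferon-stimulated genes had 7 of 8 below 0 in both, and red blood cell markers 5 of 6 above 0 in both. Over all genes 26.2% were above 0 in both, with 53.1% above 0 without ATRA and 49.3% with it. The share of all genes below 0 in both was not counted. Of the 151 lower genes 89 were above 0 in ATRA+NIC minus ATRA, with a median of 0.06. Whether the differences with and without ATRA themselves differ was not tested, since each rests on 2 arrays.

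**Figure D5:**
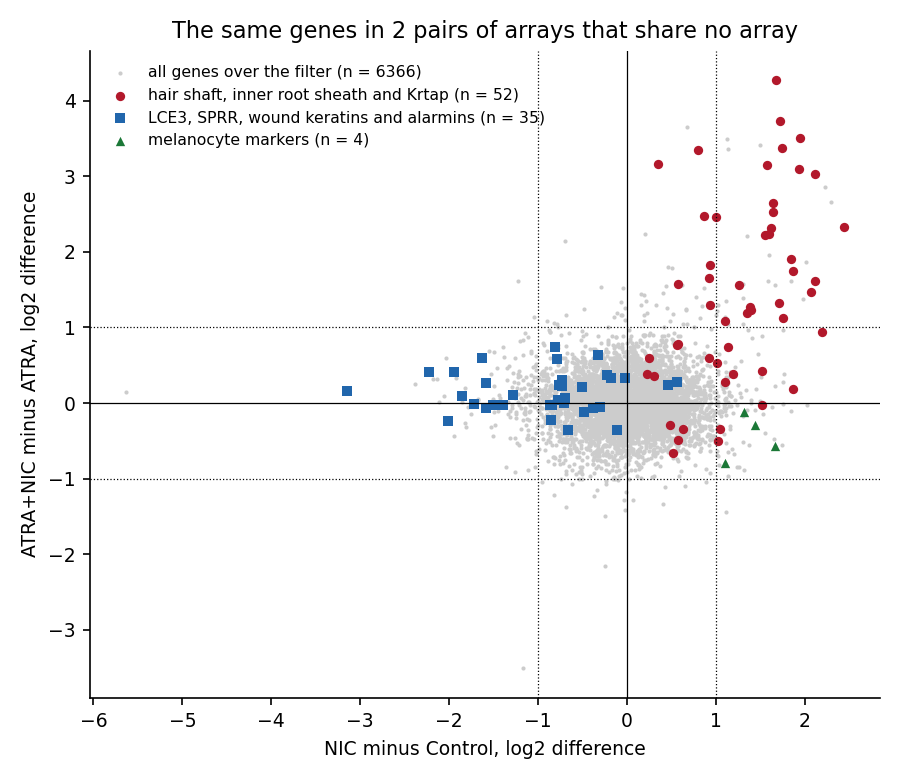
For each of the 6366 genes (grey) the log2 difference ATRA+NIC minus ATRA against NIC minus Control, with dotted lines at a 2-fold difference. Hair fibre genes (red circles) lie to the right of 0, 45 of 52 also above 0 on the vertical axis, LCE3, SPRR, wound keratin and alarmin genes (blue squares) mostly to the left, near 0 on the vertical axis, and the 4 melanocyte markers (green triangles) to the lower right.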

How the data were processed

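RNA of back skin, extracted with Trizol, was hybridised to 1-colour NimbleGen mouse arrays (Cy3), 1 array a group and 3 probes for most of the 44170 targets. Each array's deposited file holds linear intensity values that the authors had normalized by RMA, per the file headers, with an MM9 annotation. They were used as deposited, without further background correction or scaling, and log2 was taken of each intensity. Targets of a gene were averaged on log2, and genes with a mean over 4 arrays of log2 8.5 or more were counted. The members and gene lists were chosen with earlier results of these data known, and the organ markers after values were seen. With 1 array a group no test was possible, a difference of 2-fold was used as a description, and having so few arrays limits how precise any value is. The 8 value columns of the whole-series workbook, whose names give no group, were not used.

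Named were, among genes over the filter with an established name, the 15 highest and the 15 lowest differences (judged by the array's own name, so that Krt83, Krtap19-9b and Csta3, with clone or predicted names there, did not enter), the 4 largest of each list, NAD and sirtuin genes at least 1.5-fold apart, and Nnmt, Nampt, Sirt1 and Parp1. Other genes were named after their values were seen. Alternatives were median centring, quantile normalization and cyclic loess (limma 3.58.1 in R 4.3.3), the brightest target of each gene, other brightness filters and the deposited value table. Other values were computed in Python 3.11.15 with pandas 2.3.3, and the code was tested on simulated data. Array coordinates are MM9, and promoters are RefSeq sequences of GRCm38.p6.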

Additional observations from a re-analysis of the deposited data

Results flagged for a closer look

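For 3 genes NIC minus Control and ATRA+NIC minus ATRA were at least 2-fold apart in opposite directions, and whether the differences themselves differ was not tested. Apcs, the serum amyloid P component made by the liver and one of the hepatocyte markers, was at -1.22 and 1.61. Ptges, a prostaglandin E synthase, read 429.1 on Control and 207.3 on NIC and was at -1.05 and 1.14. Tmem216, a protein of the base of the cilium, read 279.0 on Control and 602.2 on NIC and was at 1.11 and -1.44.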

How the results depend on the processing

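The counts of genes at least 2-fold apart depended on which genes were counted. The 160 higher became 245 with the brightest target of each gene, 1351 with no filter on dim genes, 276 with a filter at log2 7.5 and 99 at log2 9.5. The 151 lower became 220 with the brightest target, 1390 with no filter, 253 at log2 7.5 and 77 at log2 9.5. Under median centring, quantile normalization, cyclic loess and the deposited value table the higher count lay between 141 and 172 and the lower between 137 and 174. In counts added after seeing the data, 125 higher and 151 lower were left without the hair fibre genes, and 127 and 109 without predicted names. Of 352 list medians under the alternatives 348 stayed within 0.48 log2 of the reported value, the pooled SD between targets. That limit is wider than many of the medians, so a median could pass 0 and still be counted as close. Of the 352, 27 had the other sign, in 14 lists whose medians as reported lay between -0.30 and 0.18, among them the NAD list (0.02 at log2 7.5) and the clock genes (-0.01 with no filter and at log2 9.5). The 4 that moved were LCE3 genes at -0.79 (log2 9.5), and with no filter melanocyte markers at 0.88, nerve and Schwann cell markers at -0.08 and neutrophil markers at -0.38, where other genes enter or leave the list. Of 367 values of the 74 named genes at least 2-fold apart 13 fell under 2-fold, and 0 changed sign. No paired analysis was possible because each group has 1 array and the labels carry no replicate numbers, and for the same reason no replicate could be left out. Dim genes and single targets limit the values, and no spread between animals is known.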

Other observations

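Some other groups were close on the 2 arrays or moved together by small amounts. All 6 red blood cell markers over the filter were above 0, with a median of 0.55, and in glycolysis 14 of 17 genes were below 0, with a median of -0.18. Aquaporin and hydration genes had a median of -0.36 over 8, sebocyte markers -0.18 over 15, adipocyte markers -0.15 over 12 and fibroblast and matrix genes -0.08 over 23, each with 0 at least 2-fold apart. Txnrd1, the thioredoxin reductase of the NRF2 response, read 1799 on Control and 4277 on NIC (1.25), and Gsta2, a glutathione transferase, was at -1.11, in a list with a median of -0.02 over 29. Hdc, the histamine-forming enzyme of mast cells, was at -1.28, while the 5 mast cell markers had a median of -0.26. Rarg, a retinoic acid receptor of the skin, read 2890 on Control and 1423 on NIC (-1.02), and was at -0.39 with its brightest target.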
